A study of Mus musculus with 9 samples.

Results

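The circadian clock genes measured here are Arntl, Npas2, Clock, Per1, Per2, Per3, Cry1, Cry2, Dbp and Tef. They were taken by symbol from a table of 16755 genes, and all 10 were found in it. Polyadenylated RNA was sequenced from liver of male mice in 3 groups of 3 samples, and this material is called TAL, tumor-adjacent liver, where the mice had been through the carcinogenic regimen. All mice carried Scd2 with both alleles floxed, on a background given as C57BL/6 in the sample labels and as C57BL/6J in the methods. Control liver came from untreated Scd2f/f mice, whose age is given only within a range for all mice of the study. Scd2f/f TAL came from mice of the same genotype that received the hepatic carcinogen diethyl nitrosamine (DEN) at 10 mg/kg when 2 weeks old and a Western alcohol diet (WAD) from an age of 6 weeks, for 4 months by the sample labels and for longer by the methods. Scd2f/f;CC TAL came from mice under the same regimen that also carried Col1a1-Cre, a recombinase driven by the promoter of a collagen gene of activated hepatic stellate cells (HSC) and portal fibroblasts. Hepatocytes, which make up most of the liver, are therefore not the cells targeted by the deletion. The study's text names the tissue TAL in its results and NTL in its sequencing methods. The hour at which tissue was taken is not given in the sources used here, and clock transcripts differ with the hour in healthy liver.

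The mammalian clock is a transcriptional loop that runs in nearly every cell. ARNTL, also known as BMAL1, pairs with CLOCK or with its relative NPAS2 and binds E-box elements in DNA to switch on the Per and Cry genes, whose proteins then return to the nucleus and repress that pair. E-boxes of their own drive Dbp and the Rev-erb genes Nr1d1 and Nr1d2. REV-ERB proteins in turn repress Arntl, Npas2 and Nfil3 through RORE elements, while DBP and TEF act through D-boxes. In liver, the loop paces the genes of bile acid, glucose, lipid and xenobiotic metabolism, and the time of feeding is a strong cue for it.

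The deposited table holds 1 least-squares mean for each gene and group, in normalized counts, and no value of a single mouse was used. No spread between mice is therefore attached to any value, no test across mice was made, and the depth of the libraries is unknown. Every difference given here is a description of group means, and a gene was counted as higher or lower when its means differed by a fold of at least 2. That rule was applied to the 11784 genes with an average of at least 1 over the 3 group means, which include 9 of the 10 clock genes. Npas2, with an average of 0.365, did not pass. A gene with a mean below 1 in some groups can pass through the others, as Arntl did. Its call and rank then depend in part on this minimum. Scd2, the targeted gene, had a mean of 2.46 in control liver, 6.47 for Scd2f/f TAL and 1.87 for Scd2f/f;CC TAL.

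Arntl, whose product pairs with CLOCK or NPAS2, had a mean of 0.471 in control liver, 2.17 for Scd2f/f TAL and 3.17 for Scd2f/f;CC TAL. Both TAL groups were thus above control liver, and Scd2f/f;CC TAL was the highest of the 3 groups. The ratio to control liver was 4.61 in Scd2f/f TAL, a log2 ratio of 2.20, and 6.73 in Scd2f/f;CC TAL, a log2 ratio of 2.75. Of the 11784 genes, 111 had a higher ratio in Scd2f/f TAL, and 16 did so for Scd2f/f;CC TAL. Arntl passed the minimum average of 1 only through the TAL groups, so these ranks depend in part on that minimum. The mean in control liver is low, with 21% of the genes of the table below it, and adding 1 to each mean reduced the log2 ratios to 1.11 and 1.5. Arntl lies on the plus strand at chr7:113207465-113314126 on GRCm38.

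The second of the 2 annotated starts of Arntl is followed by the RORE core motif, AGGTCA, in an exon. It is shown because these letters are the core of the elements through which REV-ERB proteins repress Arntl, although a match to letters is no evidence of a site, here or in the promoters shown for other genes. The 30 bases around it, at chr7:113207530-113207559 on GRCm38, are given on the plus strand with the core motif in capitals.
Arntl: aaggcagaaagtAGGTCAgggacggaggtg
The motif begins at position 32 counted from that start. AGGTCA, on either strand, was present in a window from 250 bases before to 50 after a start for 18.1% of the 27025 genes of the RefSeq promoter table. Among the clock genes, 9 of 10 have a window in that table, and 3 of these 9 held the core motif, namely Arntl, Clock and Per1. Per2 is not in that table.

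Npas2 encodes the paralog of CLOCK that can take its place beside ARNTL. Its mean was 0.0515 in control liver, close to the lowest mean of any gene in that group (0.0400), 0.445 for Scd2f/f TAL and 0.6 for Scd2f/f;CC TAL. The order of the groups was the same as for Arntl. The ratio to control liver was 8.64 for Scd2f/f TAL and 11.7 for Scd2f/f;CC TAL, on a denominator that only 0.901% of the genes of the table fell below. With 1 added to each mean, the log2 ratios were 0.46 and 0.61, in place of 3.11 and 3.54. Npas2 lies on the plus strand at chr1:39193731-39363236.

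Clock, the usual partner of ARNTL and the activator with the highest mean per kb of exon, had a mean of 22.3 in control liver, 38.3 for Scd2f/f TAL and 42.8 for Scd2f/f;CC TAL. The 3 groups again stood in the same order, but the distances were smaller. The ratio to control liver was 1.72 for Scd2f/f TAL and 1.92 for Scd2f/f;CC TAL, below a fold of 2 in both. Clock lies on the minus strand at chr5:76209868-76304792.

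**Figure D1:**
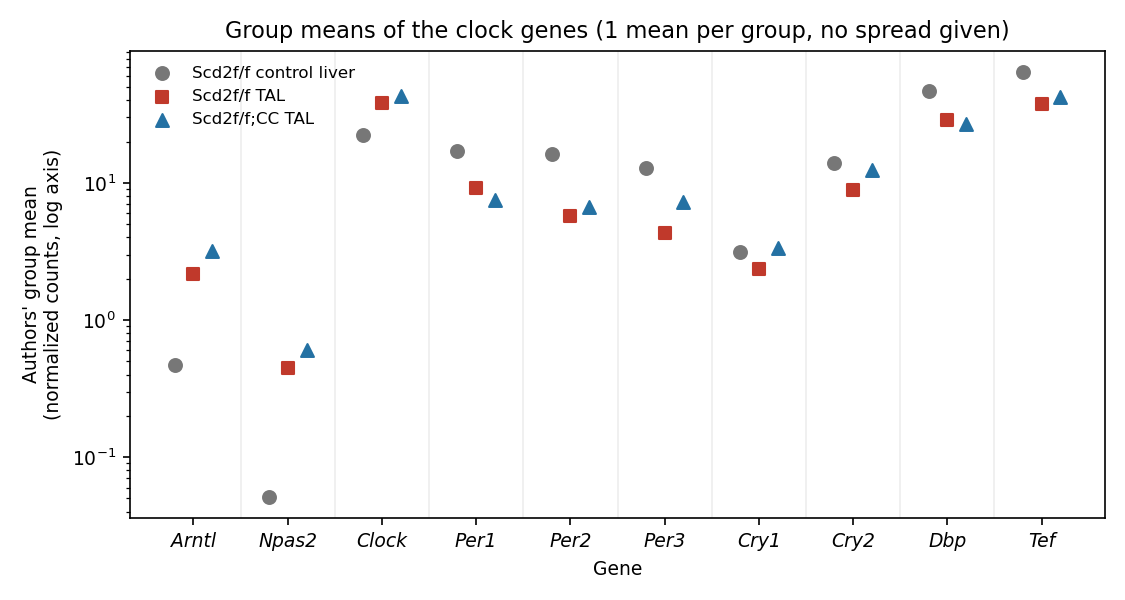
Group means of the 10 clock genes in normalized counts on a log axis, with 1 point for each group of 3 samples (grey circles, control liver; red squares, Scd2f/f TAL; blue triangles, Scd2f/f;CC TAL) and no error bars, since the table holds none. Arntl, Npas2 and Clock were lowest in control liver, while Per1, Per2, Per3, Cry2, Dbp and Tef were highest there.

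The period genes Per1, Per2 and Per3 encode the repressors that carry the CRY proteins to the activating pair. Per1, which is also induced directly by light, feeding and glucocorticoid signals, had a mean of 17.0 in control liver, 9.10 for Scd2f/f TAL and 7.47 for Scd2f/f;CC TAL. The mean fell short of a fold of 2 below control liver in Scd2f/f TAL, at 1.87-fold lower, and passed it in Scd2f/f;CC TAL, at 2.28-fold lower. Per2, whose loss disturbs rhythms in mice, had a mean of 16.3 in control liver, 5.70 for Scd2f/f TAL and 6.65 for Scd2f/f;CC TAL. Both TAL groups were past a fold of 2, at 2.86-fold and 2.45-fold lower. Per3, which is largely dispensable for the rhythm in mice, had a mean of 12.9 in control liver, 4.32 for Scd2f/f TAL and 7.21 for Scd2f/f;CC TAL. It was 2.99-fold lower for Scd2f/f TAL and 1.79-fold lower for Scd2f/f;CC TAL. All 3 genes were therefore lower in both TAL groups than in control liver, and in Scd2f/f TAL only 125 and 137 genes had a lower ratio than Per3 and Per2. Per1 lies on the plus strand at chr11:69095217-69109960, Per2 on the minus strand at chr1:91415982-91459324 and Per3 on the minus strand at chr4:151003652-151044665.

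The promoters of Per1 and Per3 hold the elements by which the loop is known to reach its repressors, and the stretch around each is shown on the strand of its gene, with an E-box (CACGTG) or a D-box (TTATGTAA) in capitals. That of Per1 lies at chr11:69098763-69098808 and that of Per3 at chr4:151044796-151044890 on GRCm38.
Per1: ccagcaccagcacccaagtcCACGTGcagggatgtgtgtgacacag
Per3: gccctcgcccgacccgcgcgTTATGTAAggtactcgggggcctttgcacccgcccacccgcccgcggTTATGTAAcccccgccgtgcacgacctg
Counted from the first of the 2 annotated starts of Per1, its E-box begins at position -166, and, counted from the start of Per3, its D-boxes begin at -205 and -158. CACGTG was present in the window of 3 of the 9 clock genes, against 8.09% of all genes, and TTATGTAA or TTACGTAA on either strand in that of 1, against 1.23%.

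The cryptochromes Cry1 and Cry2 encode the stronger repressors of ARNTL and CLOCK, and both lay closer to control liver than the Per genes did in each TAL group. Cry1, which rises late in the cycle because its gene answers to RORE as well as E-box elements, had a mean of 3.12 in control liver, 2.37 for Scd2f/f TAL and 3.34 for Scd2f/f;CC TAL. The lowest group was thus Scd2f/f TAL, at 1.32-fold lower than control liver, while Scd2f/f;CC TAL stood at a ratio of 1.07. Cry2 had a mean of 13.9 in control liver, 8.83 for Scd2f/f TAL and 12.3 for Scd2f/f;CC TAL. It was 1.57-fold lower for Scd2f/f TAL and 1.13-fold lower for Scd2f/f;CC TAL. Neither gene passed a fold of 2 in any comparison. Cry1 lies on the minus strand at chr10:85131700-85185064 and Cry2 on the minus strand at chr2:92403646-92434043, where 4.67% of its exonic bases are shared with D930015M05Rik on the other strand.

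Dbp and Tef encode transcription factors of the PAR bZIP family, which carry the rhythm from the core loop to D-boxes in the genes of drug and lipid metabolism. They were the clock genes with the highest means per kb of exon in all 3 groups. Dbp had a mean of 46.5 in control liver, 28.7 for Scd2f/f TAL and 26.7 for Scd2f/f;CC TAL, and Tef a mean of 64.3, 37.5 and 42.3. Both were lower in TAL than in control liver without reaching a fold of 2, Dbp at 1.62-fold and 1.74-fold lower and Tef at 1.71-fold and 1.52-fold lower, in Scd2f/f and Scd2f/f;CC TAL respectively. Dbp lies on the plus strand at chr7:45705088-45710203 and shares 18% of its exonic bases with Sphk2 on the minus strand. The library kit does not mark strand, so reads from the shared bases cannot be assigned by strand. Sphk2 had a mean of 10.8 in control liver, 14.8 for Scd2f/f TAL and 17.3 for Scd2f/f;CC TAL, the opposite order to that of Dbp. Tef lies on the plus strand at chr15:81802421-81826863.

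An E-box stands before the start of Cry1 and of the second annotated start of Tef, and these stretches are shown on the strand of the gene because both genes were among those lower in Scd2f/f TAL, the E-box in capitals. That of Cry1 lies at chr10:85185089-85185134 and that of Tef at chr15:81811256-81811301 on GRCm38.
Cry1: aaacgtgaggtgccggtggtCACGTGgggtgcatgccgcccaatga
Tef: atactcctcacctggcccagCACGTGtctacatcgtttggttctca
The E-box begins at position -60 from the start of Cry1 and at -138 from that of Tef. None of the 3 motifs was matched in the window of Npas2, Cry2 or Dbp, which says only that these letters are absent from those windows.

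**Figure D2:**
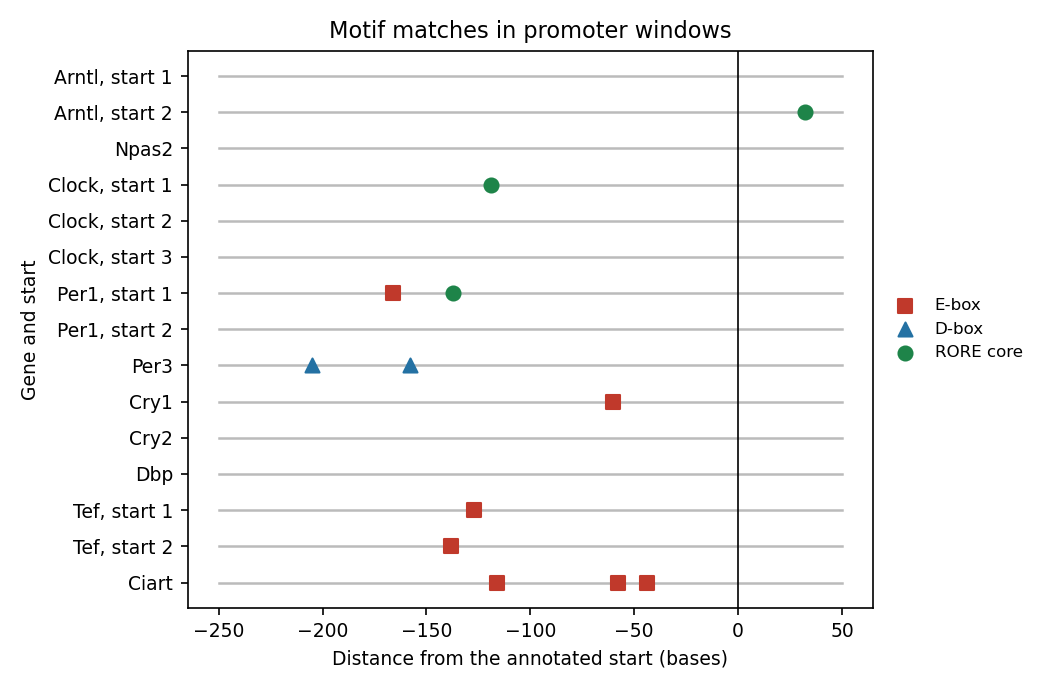
Positions of matches to the E-box (CACGTG, red squares), the D-box (TTATGTAA or TTACGTAA, blue triangles) and the RORE core motif (AGGTCA, green circles) on either strand, by distance in bases from each annotated start in the RefSeq promoter table, with 1 line for each start. Cry1 and Tef hold 1 E-box in each window, Per3 holds 2 D-boxes, and Ciart, a gene outside the 10, holds 3 E-boxes, at -116, -58 and -44.

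The comparison of Scd2f/f TAL with control liver sets mice under the regimen against untreated mice of the same genotype. Whether these groups also differed in hour of collection or in age is not known from the sources used here. Of the 9 clock genes that passed the minimum, 1 was higher by a fold of at least 2, Arntl, and 2 were lower, Per2 and Per3. Over all genes tested, 6.40% were higher and 2.89% lower by the same rule. The 9 genes had a median log2 ratio of -0.70, against 0.03 for all genes. Of the 9, 7 were below 0, as were 5498 of the 11784 genes tested. Among these 9, the activators Arntl and Clock were above 0. The repressors and outputs Per1, Per2, Per3, Cry1, Cry2, Dbp and Tef were below. Other clock repressor genes, described below, stood on both sides of 0. Nr1d1, Nfil3, Bhlhe40 and Bhlhe41 had log2 ratios of 1.19, 0.93, 0.16 and 0.09. Nr1d2 and Ciart had -0.11 and -2.67. The members were chosen for their place in the loop, but with earlier results of these data known. No statement about chance is made from these counts.

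In the ratio of 2 genes within a group, a scaling factor common to all libraries of the group cancels. Factors that differ between its libraries need not cancel. These ratios were taken of means that were not divided by length, so each is read between groups and not as the level of 1 gene against another. Per2 stood at 34.6 times the mean of Arntl in control liver, at 2.63 times in Scd2f/f TAL and at 2.10 times in Scd2f/f;CC TAL, a 13.2-fold and a 16.5-fold difference from control liver. Per3 stood at 27.4, 1.99 and 2.27 times Arntl, and Dbp at 98.7, 13.2 and 8.42 times, in the same order of groups. Since Arntl itself was 4.61-fold and 6.73-fold higher in TAL, a lower ratio to Arntl in TAL follows for any gene that was higher by less, Clock included. The ratio of Per2 to Clock, which does not rest on the low Arntl mean of control liver, was 0.731 in control liver, 0.149 for Scd2f/f TAL and 0.155 for Scd2f/f;CC TAL. Within the Per family the ratio of Per2 to Per1 was 0.959, 0.626 and 0.890, and that of Per3 to Per1 was 0.759, 0.475 and 0.965. The ratio of Tef to Dbp was 1.38, 1.31 and 1.58.

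**Figure D3:**
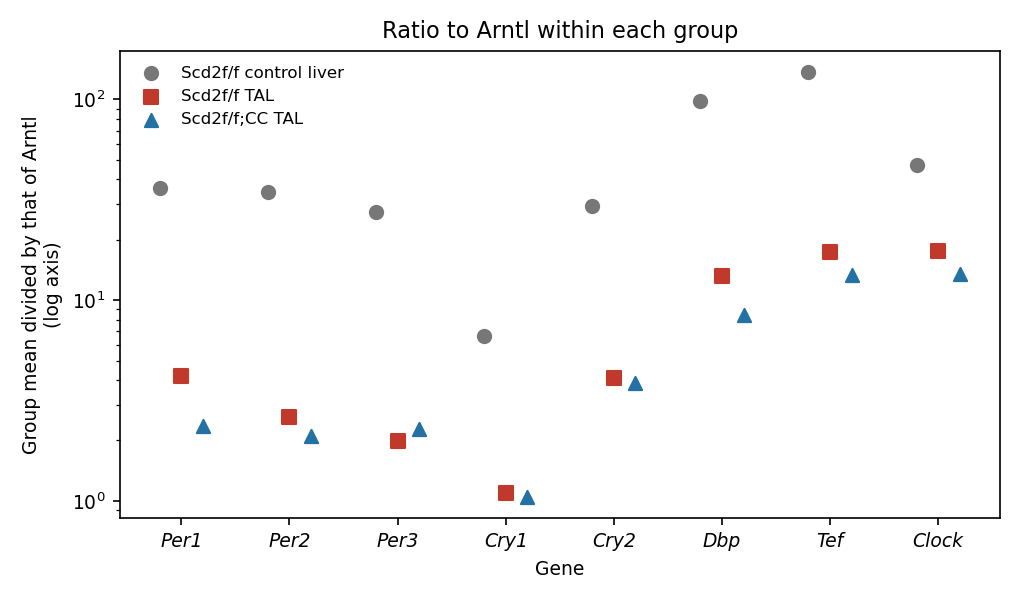
Group mean of each gene divided by the group mean of Arntl, on a log axis, with 1 point for each group (grey circles, control liver; red squares, Scd2f/f TAL; blue triangles, Scd2f/f;CC TAL). Control liver lies highest for all 8 genes, which follows for any gene that was higher by less than Arntl in TAL. Per2 had 34.6 in control liver, 2.63 for Scd2f/f TAL and 2.10 for Scd2f/f;CC TAL.

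The comparison of Scd2f/f;CC TAL with Scd2f/f TAL sets mice with and without Col1a1-Cre against each other under the same regimen. Whether their hour of collection was matched is not known from the sources used here. Of the 9 clock genes tested, 0 were higher and 0 lower by a fold of at least 2, where 0.645% of all genes were higher and 1.54% lower. The log2 ratios of the 10 genes ran from -0.28 for Per1 to 0.74 for Per3. The largest ratio was that of Per3, at 1.67, followed by Arntl at 1.46, Cry1 at 1.41, Cry2 at 1.39 and Npas2 at 1.35. Per1 and Dbp were the 2 genes with lower means in Scd2f/f;CC TAL, at ratios of 0.821 and 0.930. Without a spread between mice, it cannot be said whether these ratios differ from 1 by more than mice of 1 group differ among themselves. Among the 9 genes the median log2 ratio was 0.22, against 0.01 for all genes.

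Scd2f/f;CC TAL was compared with control liver too, although this comparison differs in both genotype and regimen. It shares control liver with the first comparison and its other group with the second, so the 3 sets of ratios are not independent. Arntl was higher by a fold of at least 2, and Per1 and Per2 were lower, in a background of 4.51% of genes higher and 2.55% lower. Clock, with a log2 ratio of 0.94, stood just short of the limit, and Per3, with -0.84, was no longer past it. Of the 7 clock genes that were lower in Scd2f/f TAL than in control liver, 5 were nearer to control liver in Scd2f/f;CC TAL, namely Per2, Per3, Cry1, Cry2 and Tef. Of the 5498 genes tested that were lower in Scd2f/f TAL, 55.7% were nearer, and since both distances are taken from the same control mean and genes picked as low in 1 group tend to lie nearer in another, the count is a description. For Per1 and Dbp, and for all 3 activators, Scd2f/f;CC TAL lay farther from control liver than Scd2f/f TAL did. Of the 6216 genes tested that were higher in Scd2f/f TAL than in control liver, 54.4% were nearer to it in Scd2f/f;CC TAL. Npas2 is not among the genes tested.

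**Figure D4:**
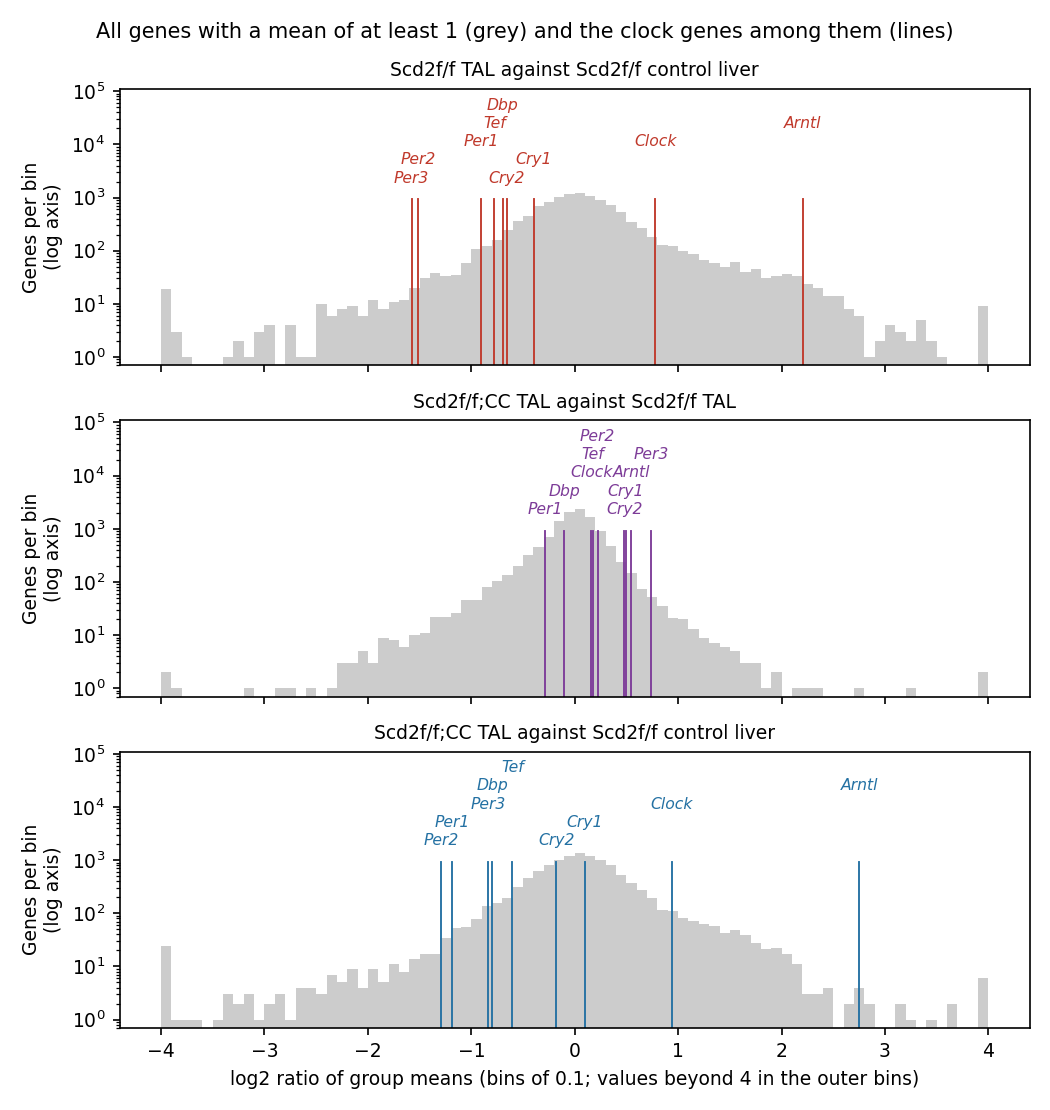
Distribution of log2 ratios over the 11784 genes with an average of at least 1 (grey bars, bins of 0.1, log axis) for the 3 comparisons, with a line for each of the 9 clock genes among them. Arntl lies in the right tail and Per2 and Per3 in the left tail of Scd2f/f TAL against control liver, while all 9 lie between -0.28 and 0.74 for Scd2f/f;CC TAL relative to Scd2f/f TAL.

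Levels of different genes within a group were ordered after division by the length of the annotated exons. On that scale, in mean per kb, Dbp was highest in each group, with 15.5 in control liver, 9.59 for Scd2f/f TAL and 8.92 for Scd2f/f;CC TAL, and Tef came next, with 8.17, 4.77 and 5.38. In control liver they were followed by Per1 at 3.02 and Per2 at 2.78, with Clock behind Cry2 at 1.62. In both TAL groups Clock followed directly after Dbp and Tef, at 2.79 and 3.12 per kb. Arntl and Npas2 were last in all groups, at 0.0626 and 0.0107 in control liver and at 0.421 and 0.125 in Scd2f/f;CC TAL. Which neighbours in these orders differ beyond the spread between mice cannot be said from group means.

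The other transcription factors of the clock were followed through a list of 12 genes, of which 11 were in the table and 10 passed the minimum. In Scd2f/f TAL against control liver, 1 of the 10 was higher by a fold of at least 2, Nr1d1, and 1 was lower, Ciart. By that rule, 6.40% of all genes tested were higher and 2.89% lower. Nr1d1, which encodes REV-ERB alpha, had a mean of 18.9 in control liver, 43.1 for Scd2f/f TAL and 43.9 for Scd2f/f;CC TAL. Like Per2 and Dbp, Nr1d1 is driven through E-boxes, and its product represses Arntl. In these means Nr1d1 and Arntl were higher in TAL than in control liver, and Per2 and Dbp were lower. The ratio of Per2 to Nr1d1 was 0.862 in control liver, 0.132 for Scd2f/f TAL and 0.151 for Scd2f/f;CC TAL. Nr1d2, its paralog REV-ERB beta, had means of 84.2, 78.0 and 73.1, within a narrow range.

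Ciart, also called Chrono, encodes a repressor of the ARNTL and CLOCK pair. Its mean was 5.57 in control liver, 0.874 for Scd2f/f TAL and 0.928 for Scd2f/f;CC TAL. It stood 6.37-fold lower in Scd2f/f TAL, where 38 genes had a lower ratio, and 6.00-fold lower in Scd2f/f;CC TAL. Ciart passed the minimum average of 1 only through control liver, so that rank depends in part on the minimum. Its promoter holds 3 E-boxes, more than any of the 9 clock genes with a window, and is shown for that reason on the minus strand, at chr3:95882252-95882364 on GRCm38, with the E-boxes in capitals.
Ciart: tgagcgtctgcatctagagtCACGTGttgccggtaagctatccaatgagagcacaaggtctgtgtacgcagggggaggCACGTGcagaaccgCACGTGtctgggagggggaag
The 3 E-boxes begin at positions -116, -58 and -44 from the start.

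Nfil3, which encodes a repressor at D-boxes and so opposes DBP and TEF, had a mean of 4.18 in control liver, 7.96 for Scd2f/f TAL and 9.11 for Scd2f/f;CC TAL. Its ratio to control liver was 1.90 in the former and 2.18 in the latter. Hlf, another PAR bZIP gene, had means of 29.0, 20.2 and 24.2, the same order of groups as Tef. Rora, whose product competes with REV-ERB proteins at RORE elements, had means of 41.6, 47.7 and 51.6, within a fold of 2. Bhlhe40 and Bhlhe41 encode repressors that compete for E-boxes. Bhlhe40 had means of 45.8, 51.3 and 38.3, and Bhlhe41 means of 4.26, 4.52 and 2.83, so that both were lowest in Scd2f/f;CC TAL. Timeless, whose mammalian product serves mainly in DNA replication, had means of 1.61, 1.21 and 1.69. Arntl2, the paralog of Arntl, was below the minimum, with means of 0.259, 0.276 and 0.196. Rorb was not found in the table. Between both TAL groups, 0 of the 10 genes differed by a fold of 2, and the median log2 ratio was 0.10. Of all genes tested, 97.8% were within that fold.

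**Figure D5:**
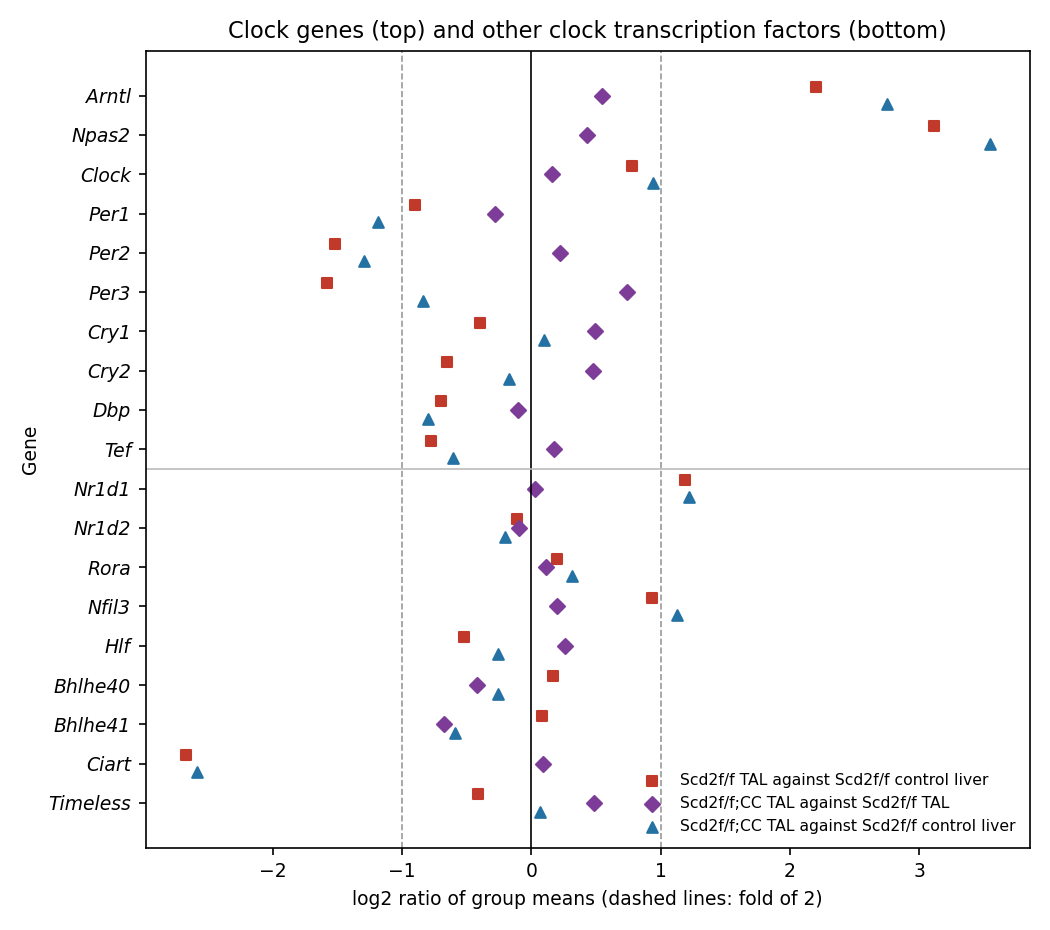
Log2 ratios of group means for the 10 clock genes (top) and 9 other clock transcription factors that passed the minimum (bottom), in Scd2f/f TAL against control liver (red squares), Scd2f/f;CC TAL relative to Scd2f/f TAL (purple diamonds) and Scd2f/f;CC TAL against control liver (blue triangles), with dashed lines at a fold of 2. Arntl, Npas2, Per2, Nr1d1 and Ciart lie beyond the dashed lines in both comparisons with control liver, and the diamonds of all genes plotted lie within them.

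A further list holds 14 kinases, ubiquitin ligases and other regulators that set the lifetime of the clock proteins, all above the minimum. In Scd2f/f TAL against control liver, 13 of the 14 were within a fold of 2, as were 90.7% of all genes tested, and the median log2 ratio was 0.02. Usp2, a deubiquitinase that is itself a rhythmic target of the clock, was the exception, with a mean of 26.4 in control liver, 10.2 for Scd2f/f TAL and 7.65 for Scd2f/f;CC TAL. The next largest log2 ratios were 0.49 for Fbxl21, 0.39 for the casein kinase gene Csnk1e, 0.30 for Gsk3b and 0.28 for Btrc. Between both TAL groups, 0 of the 14 genes passed a fold of 2, and 97.8% of all genes tested were within it.

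Genes known as rhythmic outputs in liver differed in both directions. Of 24 such genes, which include Usp2 again, 5 were higher and 6 lower by a fold of at least 2 in Scd2f/f TAL against control liver, with a median log2 ratio of -0.11, where 6.40% of all genes tested were higher and 2.89% lower. The largest differences downward were those of Noct, a rhythmic phosphatase once described as a deadenylase, with means of 27.4 in control liver, 5.15 for Scd2f/f TAL and 8.72 for Scd2f/f;CC TAL, and of Lpin1, a phosphatidate phosphatase induced by fasting and glucocorticoids, with means of 184, 48.1 and 18.3. Upward they were those of Cdkn1a, a cell cycle inhibitor that is also a target of p53, with means of 0.464, 4.33 and 1.80, of Insig2, a brake on sterol synthesis, with means of 40.8, 124 and 126, and of the tubulin gene Tubb2a, with means of 13.6, 40.3 and 22.2. Elovl3, a fatty acid elongase under REV-ERB control, had means of 13.7, 34.3 and 73.2 and was the 1 gene of this list higher by a fold of 2 in Scd2f/f;CC TAL than in Scd2f/f TAL, while Cdkn1a and Lpin1 were the 2 lower ones. With 1 added to each mean, Cdkn1a fell short of that fold, at a log2 ratio of -0.93 in place of -1.27. In that comparison, 0.645% of all genes tested were higher and 1.54% lower. Against control liver, Scd2f/f;CC TAL was also past a fold of 2 upward for Rgs16, with means of 9.32, 20.4 and 23.9. It was past it downward for Tspan4, with means of 22.8, 10.8 and 9.74.

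The genes most like Arntl and Dbp were sought over the 3 group means, as the smallest distance between the pairs of log2 ratios of Scd2f/f TAL to control liver and of the Cre-carrying TAL to Scd2f/f TAL. With only 3 means a pattern has 2 degrees of freedom, and the distance is a description. Nearest to Arntl among 5578 genes was Adam11, with means of 3.03, 14.3 and 19.0 and a distance of 0.141, followed by Cyp4a10, 8430408G22Rik, Acot1 and Cyp2c39 at distances from 0.478 to 0.631. Nearest to Dbp were Chmp7, Nolc1, Srprb, Cobl and Fam107b, at distances from 0.0265 to 0.0438. None of these is a gene of the clock lists.

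The cellular makeup of the samples was read from marker genes. The 8 hepatocyte markers, such as Alb, stayed within a fold of 2 in each comparison, and their summed mean was 37119 in control liver, 34569 for Scd2f/f TAL and 39122 for Scd2f/f;CC TAL, so the genes that define hepatocytes were abundant in all 3 groups. All 6 macrophage markers were higher by a fold of at least 2 in both TAL groups than in control liver, with summed means of 53.1, 176 and 161. The 8 markers of HSC and portal fibroblasts summed to 125, 214 and 124. In Scd2f/f TAL against control liver, 3 of them were higher by a fold of at least 2, the collagen genes Col1a1, Col1a2 and Col3a1. Lrat, with means of 15.0, 19.0 and 16.0, and Reln, with 73.0, 89.2 and 71.6, stayed within that fold, as did Fbln2. Des and Acta2 were not higher in Scd2f/f TAL than in control liver. The 5 endothelial markers summed to 91.5, 114 and 118. The 5 cholangiocyte markers summed to 58.7, 53.1 and 19.1, and most of each sum was Spp1, with means of 52.3, 45.1 and 14.8. Sox9 was higher in Scd2f/f and Scd2f/f;CC TAL than in control liver, with log2 ratios of 0.75 and 0.23. Epcam was lower in both, with -0.11 and -1.98. Krt7 and Krt19 had means below 1 in every group. All 5 markers had lower means in Scd2f/f;CC TAL than in Scd2f/f TAL. The 7 lymphocyte markers summed to 1.57, 4.73 and 3.37 and were all below the minimum. Macrophage markers and Arntl were thus both higher in the 2 TAL groups, and the part of cell composition in the clock values was not tested. In bulk tissue, fewer cells of a type and less RNA per cell cannot be told apart.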

How the data were processed

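RNA of 9 samples, 3 per group, was prepared with a TruSeq polyadenylated RNA kit and sequenced on a NextSeq instrument. Per the submitters' processing notes, the tools include STAR 2.6.1 and Partek 6, and the build is mm10. The authors quantified reads on Gencode M3 by the Partek E/M method, normalized them to the upper quartile and deposited, as a signal per gene, the least-squares mean of each group with 3 significant digits. The 4 columns of means in the deposited table give 3 groups, since that of Scd2f/f TAL is repeated with identical values. The table also holds p-values, false discovery rates, ratios and fold changes of 2 comparisons by the authors, which were not used here. Depth is unknown.

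Log2 ratios of group means were computed without a pseudocount for genes with an average of at least 1 over the 3 groups, and a fold of 2 counted as a difference. The members and lists were chosen with earlier results of these data known. The genes named are the 10 clock genes, the other clock transcription factors, Scd2, up to 5 genes per further list that differed most between Scd2f/f TAL and control liver, those past a fold of 2 in the other comparisons, and the 5 genes nearest to Arntl and to Dbp in pattern, among genes with an average of at least 10 and no mean below 1. Sphk2 and D930015M05Rik were named because their exons overlap those of Dbp and Cry2. Values of some genes of the lists are not reported here, though the counts include them. Noct was looked up under its present symbol. Exon lengths, gene coordinates and overlaps come from GENCODE M21 on GRCm38, whose gene starts are those of the table for all 10 clock genes. Promoter windows of 250 bases before to 50 after a start come from RefSeq on GRCm38.p6, and 9 of the 10 clock genes matched by symbol. Steps were tested on simulated data. Alternatives were folds of 1.5 and 3, no minimum or one of 10, a pseudocount of 1, centring on the median and a shorter promoter window. Python 3.11.15, NumPy 2.4.6, pandas 2.3.3 and Matplotlib 3.10.9 were used.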

Additional observations from a re-analysis of the deposited data

How the results depend on the processing

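No paired analysis was possible because the table holds group means and no value of a single sample, and for the same reason no replicate could be left out. With centring on the median, every count stayed within 1.5 times its value. With a fold of 1.5, the clock genes counted in Scd2f/f TAL against control liver became 2 higher (from 1) and 6 lower (from 2), those in Scd2f/f;CC TAL relative to Scd2f/f TAL 1 higher (from 0), which is Per3, and those in Scd2f/f;CC TAL against control liver 2 higher (from 1) and 5 lower (from 2). With a fold of 3, Arntl alone was counted in both comparisons with control liver, and the lower clock genes became 0 in each. Without a minimum, Npas2 made 2 higher clock genes in both. With a minimum of 10, Arntl, Per2 and Per3 are left out by construction, which gives 0 higher and 0 lower clock genes in Scd2f/f TAL against control liver, and 0 and 1 for the Scd2f/f;CC group. A pseudocount of 1 changed no count of clock genes, and it moved 42 of 228 log2 ratios of single genes by at least 0.1. By construction it cannot reverse a sign. The other listed genes past the fold changed from 20 to 10 at a fold of 3 in Scd2f/f TAL against control liver, from 6 to 15 and 1 at folds of 1.5 and 3 in Scd2f/f;CC TAL relative to Scd2f/f TAL, and from 19 to 11 at a fold of 3 in Scd2f/f;CC TAL against control liver.

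For all genes, the counts by fold of 1.5, fold of 3, no minimum, minimum of 10 and pseudocount of 1 were, in that order, 1511, 340, 1570, 145 and 451 higher (from 754) and 1014, 125, 785, 147 and 223 lower (from 341) in Scd2f/f TAL against control liver. They were 277, 17, 305, 28 and 37 higher (from 76) and 578, 45, 682, 34 and 83 lower (from 181) in Scd2f/f;CC TAL relative to Scd2f/f TAL. They were 1284, 173, 1074, 128 and 261 higher (from 531) and 908, 114, 777, 124 and 196 lower (from 301) in Scd2f/f;CC TAL against control liver. With 250 bases before the start alone, 3, 1 and 2 of the 9 clock genes held the E-box, the D-box and the RORE core motif, in place of 3, 1 and 3. The means of Arntl and Npas2 in control liver are low, and with unknown depth no counting error can be given for them.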

Other observations

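Genes that answer to glucocorticoids, heat and feeding, the cues that reach the liver clock from the rest of the body, were followed through a list of 18 genes, all above the minimum. In Scd2f/f TAL against control liver, 3 were higher and 4 lower by a fold of at least 2, where 6.40% of all genes tested were higher and 2.89% lower. Fkbp5, a chaperone gene induced by glucocorticoids, had a mean of 39.5 in control liver, 10.8 for Scd2f/f TAL and 10.2 for Scd2f/f;CC TAL. The metallothionein genes Mt1 and Mt2, which answer to glucocorticoids and metals, had means of 185, 22.1 and 17.7 and of 108, 7.72 and 5.59. The heat shock genes Hspa1a and Hspa1b stood the other way, with means of 0.415, 3.96 and 0.861 and of 7.62, 34.5 and 16.0. They are near-identical copies, and the division of reads between them is uncertain.

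Hsp90aa1, which encodes a chaperone of the glucocorticoid receptor, had means of 335, 172 and 154. Igfbp1 and G6pc, both repressed by insulin, were highest in Scd2f/f;CC TAL, with means of 12.3, 22.6 and 43.3 and of 71.2, 54.2 and 136. In Scd2f/f;CC TAL relative to Scd2f/f TAL, 0.645% of all genes tested were higher by a fold of 2 and 1.54% lower. G6pc was the 1 higher gene of this list, and Hspa1a and Hspa1b were the 2 lower ones. These values have no spread between mice, and their relation to the clock genes was not tested.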
